A study of Mus musculus with 18 samples.

Results

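Htr2b, a Gq-coupled serotonin receptor, was the serotonin receptor with the highest RPKM in isolated white adipocytes, and it stood far higher in epididymal (eWAT) than in inguinal (iWAT) adipocyte preparations, with almost no reads in brown adipose tissue (BAT). It is described here with 9 other serotonin genes: the receptors Htr1b, Htr1d, Htr2a, Htr2c, Htr4 and Htr7, the synthesis enzyme gene Tph1, the breakdown enzyme gene Maoa and the uptake transporter gene Slc6a4. These 10 genes were taken by symbol from the 52093 symbols of the RNA-seq files. Each of them has 1 transcript row, so a rule that keeps the row with the highest mean RPKM had nothing to choose between. The list was drawn up with earlier results of these data known, and Htr2b was chosen by its RPKM and reads in these samples, which are therefore given without a test. RPKM is the number of reads per kilobase of transcript, scaled to the read total of the sample.

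The 18 samples came from wild-type male C57BL/6 mice that were 16 weeks old and had been on a high-fat diet (HFD) during 12 weeks, with 6 mice per tissue. One label field gives regular chow for all samples, against their titles and the design text, and the labels and the study differ in the substrain. White adipocytes were freed with collagenase and collected as the floating layer, whereas BAT was frozen as whole tissue, although 1 label calls it BAT adipocytes. Both white depots came from mice 1, 2, 3, 4, 5 and 16, and BAT came from mice 1, 2, 5, 16, 17 and 18, by the numbers in the sample titles. Values given for iWAT or eWAT are those of isolated adipocytes. Reads on the transcript rows numbered 26768529 to 30166441 per sample in iWAT, 24655056 to 37438994 in eWAT and 27402247 to 42518483 in BAT. Both white depots were run in lanes 1 and 2 and BAT in lanes 3 and 4, so for BAT the lane and the tissue cannot be told apart. No source says that strand was used in counting.

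The summed RPKM of 4 adipocyte markers (Adipoq, Plin1, Fabp4 and Lep) was 10470 to 14634 in iWAT, 2329 to 7167 in eWAT and 5140 to 6356 in BAT. That of 4 brown adipocyte markers (Ucp1, Cidea, Dio2 and Elovl3) was 1995 to 2631 in BAT, at most 12.1 in iWAT adipocytes and at most 3.14 in eWAT adipocytes. Macrophage markers were also present in the floating layer: the summed RPKM of Cd68, Emr1, Csf1r, Itgam and Lyz2 was 437 to 857 in iWAT, 2459 to 3999 in eWAT and 23.7 to 47.2 in BAT. All 5 markers had more than 3 reads in every sample. A pair of eWAT libraries stood apart, those of mice 1 and 3, with the lowest adipocyte sums of that depot (3178 and 2329, against at least 4646 in the other 4 mice) and the highest macrophage sums (3999 and 3904, against at most 2714). In such bulk samples, fewer cells of a type and less RNA per cell cannot be told apart.

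Serotonin (5-hydroxytryptamine) is made from tryptophan by a tryptophan hydroxylase, Tph1 in most peripheral cells and Tph2 in neurons, followed by the decarboxylase Ddc. The transporter Slc6a4 takes it back into cells and monoamine oxidases degrade it. In adipose tissue it is known as a hormone from the gut and as a local signal: it has been linked to lipolysis in white adipocytes and to lower heat production in BAT. Its receptors are G protein-coupled, apart from the ion channel made by the Htr3 genes. Htr1 receptors couple to Gi, Htr2 receptors to Gq, and Htr4 and Htr7 to Gs.

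The Htr2b row lies on chromosome 1 (87995601 to 88008545, minus strand, mm9), with 4 exons and a transcript length of 2131 bases. In iWAT adipocytes of mice 1, 2, 3, 4, 5 and 16, Htr2b was at 0.476, 0.292, 0.602, 0.438, 0.637 and 0.482 RPKM, from 30, 17, 39, 29, 41 and 32 reads. In eWAT adipocytes of the same mice it was at 5.87, 4.67, 7.61, 6.09, 5.28 and 7.31 RPKM, from 515, 337, 482, 344, 334 and 522 reads. In BAT of mice 1, 2, 5, 16, 17 and 18 it was at 0.0427, 0.0487, 0.0384, 0.0205, 0.0397 and 0.0688 RPKM, from only 3, 4, 2, 1, 3 and 5 reads. The 3 tissues did not overlap: the lowest eWAT value lay above the highest iWAT value, and the lowest iWAT value above the highest BAT value. Of all genes tested, 44.0% had groups without overlap between iWAT and eWAT adipocytes, 65.3% between iWAT adipocytes and BAT and 68.4% between eWAT adipocytes and BAT.

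Mean Htr2b RPKM was 0.488 ± 0.124 in iWAT, 6.14 ± 1.14 in eWAT and 0.0431 ± 0.0157 in BAT (SD, n = 6 mice each), which is a ratio of 12.6 between eWAT and iWAT adipocytes, 11.3 between iWAT adipocytes and BAT and 142 between eWAT adipocytes and BAT. On the log2 scale, edgeR, which scales the libraries by TMM (trimmed mean of M values), gave a difference between iWAT and eWAT adipocytes of -3.64 (SE 0.17). Against BAT, the difference was 2.82 (SE 0.27) in iWAT and 6.48 (SE 0.20) in eWAT adipocytes. The SEs come from the F statistic of these fits, which included Htr2b. They are not independent evidence, because Htr2b was chosen by its values in the same samples. In eWAT adipocytes, 82.6% of the 36990 symbols with a read had a lower mean RPKM than Htr2b, compared with 54.9% in iWAT adipocytes and 33.1% in BAT. Within lane 1, the eWAT mean was 11 times the iWAT mean (4 eWAT and 2 iWAT samples), and within lane 2 it was 14.3 times (2 and 4 samples). Without eWAT mice 1 and 3, the eWAT mean was 5.84 ± 1.14 RPKM (n = 4).

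**Figure D1:**
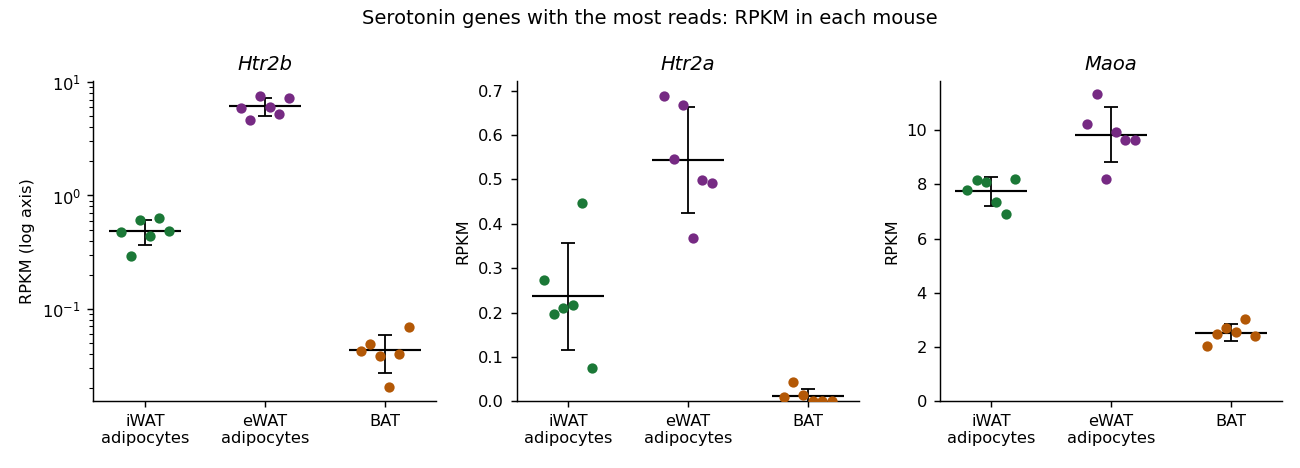
RPKM of Htr2b (log axis), Htr2a and Maoa (linear axes) in each mouse, with 6 points per tissue, the mean as a line and the SD as a bar. Htr2b and Maoa do not overlap between any 2 tissues, and Htr2a overlaps only between iWAT and eWAT adipocytes.

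Htr2b lies inside the Psmd1 gene, which encodes a proteasome subunit and is read from the opposite strand, and 252 of the 2131 Htr2b exon bases (11.8%) are also exon bases of Psmd1 in GENCODE vM1. Mean Psmd1 RPKM was 31.7 in iWAT, 37.2 in eWAT and 16.7 in BAT, and a combined Psmd1/Armc9 row over the same place was at 5.09, 5.99 and 2.66. Psmd1 reads thus differed far less between the tissues than Htr2b reads, and how many reads in the shared bases belong to each gene was not tested. The lowest exon value of Htr2b in the files was above 0 in 6 of 6 eWAT samples, 4 of 6 iWAT samples and 0 of 6 BAT samples. In BAT, where Htr2b had at most 5 reads per sample, its level is hardly distinguishable from none at this depth.

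Macrophage markers had the same order of tissues as Htr2b. Per 1000 RPKM of the 5 summed macrophage markers, Htr2b was at 0.666 to 0.884 RPKM in iWAT (0.767 ± 0.0989), 1.47 to 2.69 in eWAT (2.08 ± 0.452) and 0.850 to 1.54 in BAT (1.11 ± 0.275, SD, n = 6 each). This quotient did not overlap between iWAT and eWAT adipocytes, and BAT overlapped with both. The BAT quotient rests on only 1 to 5 Htr2b reads per sample. Lyz2 made up most of the macrophage sum, with mean RPKM of 441 in iWAT, 2212 in eWAT and 32.3 in BAT. The ratio of mean RPKM between eWAT adipocytes and BAT was 142 for Htr2b, 183 for Cd68, 167 for Emr1 and 165 for Itgam. It was 39.2 for Csf1r and 68.4 for Lyz2. The order of eWAT adipocytes and BAT in the quotient thus depends on the marker. Between eWAT and iWAT adipocytes, the ratio was 12.6 for Htr2b and smaller for each of the 5 markers, from 3.89 (Csf1r) to 5.48 (Itgam). In iWAT adipocytes, mice 3 and 5 had the highest macrophage sums (857 and 753) and the highest Htr2b values, and mouse 2 had the lowest of both. The eWAT libraries of mice 1 and 3, with the highest macrophage sums, had Htr2b at 5.87 and 7.61 RPKM, within and just above the range of 4.67 to 7.31 in the other 4 mice. Of mesothelial cells, which cover the epididymal fat pad, the markers Msln, Upk3b, Wt1 and Krt19 had a summed RPKM of 0.430 to 2.65 in eWAT adipocytes and of at most 0.0808 in the other tissues. The part of macrophages or mesothelial cells in the Htr2b level was not tested.

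**Figure D2:**
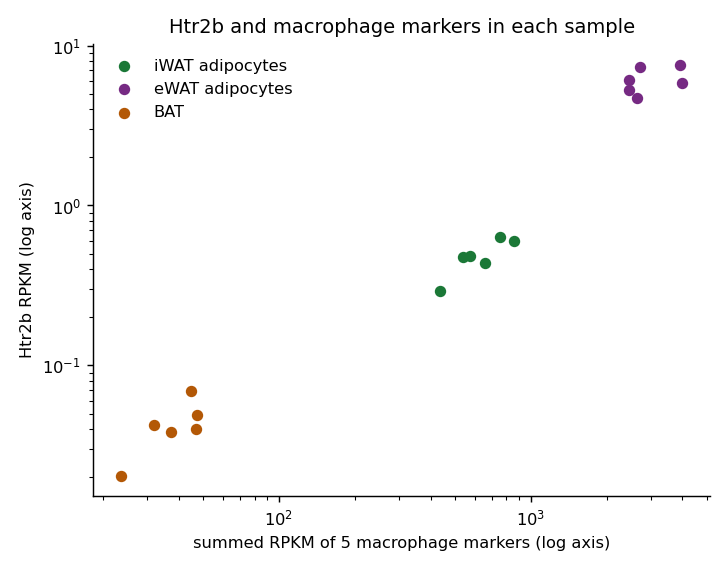
Htr2b RPKM against the summed RPKM of Cd68, Emr1, Csf1r, Itgam and Lyz2, both on log axes, with 1 point per sample and a colour per tissue. BAT, iWAT adipocytes and eWAT adipocytes form 3 separate clusters, with macrophage sums up to 47.2, from 437 to 857 and from 2459.

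The genes whose levels followed Htr2b most closely were ranked among 19940 genes, by the root mean square difference of log2(RPKM + 0.1) over the 18 samples after each gene was centred on its own mean. The nearest were Serpinb1c (0.30), Fat3 (0.36), Ms4a7 (0.38), Prss46 (0.38) and Serpinb6b (0.38). Ms4a7 is known as a gene of macrophages, Serpinb1c and Serpinb6b belong to a family of intracellular protease inhibitors, and Fat3 encodes a large cadherin. Ms4a7 was at 2.62 ± 0.650 RPKM in iWAT, 17.2 ± 2.61 in eWAT and 0.304 ± 0.0491 in BAT. Serpinb1c was at 0.347 ± 0.129 and 3.76 ± 1.08 RPKM in the white depots and had 0 RPKM in all BAT samples. Among the macrophage markers, Csf1r ranked 109 (0.68) and Lyz2 253 (0.77), whereas Itgam, Emr1 and Cd68 ranked 935, 1352 and 2061. Psmd1 ranked 5491 (1.83) and Adipoq 14554 (2.41). With a pseudocount of 1 in place of 0.1, none of the 5 nearest genes was among the 5 nearest, so the list depends on how low values are treated.

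Htr2a, the other Gq-coupled receptor with more than a few reads, lies on chromosome 14 (75040647 to 75106666, plus strand) with 3 exons. In iWAT adipocytes of mice 1, 2, 3, 4, 5 and 16 it was at 0.273, 0.197, 0.210, 0.216, 0.446 and 0.0756 RPKM, from 24, 16, 19, 20, 40 and 7 reads. In eWAT adipocytes it was at 0.687, 0.547, 0.668, 0.368, 0.499 and 0.492 RPKM, from 84, 55, 59, 29, 44 and 49 reads. In BAT it had 1, 5, 1, 0, 0 and 0 reads. BAT lay below both white depots in every mouse, and the white depots overlapped, because mouse 5 had more Htr2a in iWAT adipocytes than mouse 4 had in eWAT adipocytes.

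Mean Htr2a was 0.236 ± 0.121 RPKM in iWAT, 0.544 ± 0.120 in eWAT and 0.0113 ± 0.0169 in BAT (SD, n = 6 each). The difference was -1.20 on the log2 scale for iWAT over eWAT adipocytes (SE 0.28, adjusted p = 0.00193, edgeR). It was 3.54 for iWAT adipocytes over BAT (SE 0.60, adjusted p = 6.37e-05) and 4.78 for eWAT adipocytes over BAT (SE 0.46, adjusted p = 1.10e-07). The eWAT mean was 2.15 times the iWAT mean in lane 1 and 2.52 times in lane 2. In iWAT adipocytes, mice 5 and 1 had the most Htr2a and mouse 16 the least, and the summed RPKM of the endothelial markers Cdh5, Pecam1, Kdr and Tek had the same extremes (280 and 239 against 99.5). So did the sums of the smooth muscle and pericyte markers Acta2, Myh11, Cnn1 and Rgs5 (206 and 155 against 62.3) and of the T and B cell markers Cd3e, Cd79a and Ms4a1 (0.754 and 0.709 against 0.167). Rgs5 made up most of the smooth muscle and pericyte sum in iWAT adipocytes, with a mean of 98.3 of 113 RPKM. Between the depots the order was the opposite one, with endothelial sums of 99.5 to 280 in iWAT adipocytes and 33.4 to 71.2 in eWAT adipocytes. The macrophage sums had the tissue order of Htr2a, with 437 to 857 in iWAT, 2459 to 3999 in eWAT and 23.7 to 47.2 in BAT. In eWAT adipocytes, Htr2a was highest in mice 1 and 3 (0.687 and 0.668 RPKM), which had the highest macrophage sums (3999 and 3904). In iWAT adipocytes, mouse 3 had the highest macrophage sum (857) but not the most Htr2a (0.210 RPKM). The part of these cell types was not tested. The short rows AK089492 and AK090171 lie over the Htr2a row, with mean RPKM of at most 0.164 and 0.0036.

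Maoa, the gene of a mitochondrial enzyme that oxidizes serotonin and noradrenaline, had the highest RPKM of the 10 genes in every tissue. Its row lies on the X chromosome (16196824 to 16264944, plus strand), with 18 exons. In iWAT adipocytes of mice 1, 2, 3, 4, 5 and 16 it was at 7.78, 8.18, 8.08, 7.33, 6.90 and 8.20 RPKM, and in eWAT adipocytes at 10.2, 11.3, 8.20, 9.93, 9.62 and 9.65 RPKM. In BAT of mice 1, 2, 5, 16, 17 and 18 it was at 2.05, 2.48, 2.70, 2.55, 3.03 and 2.40 RPKM. No 2 tissues overlapped, although the highest iWAT and the lowest eWAT value nearly met.

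Mean Maoa was 7.74 ± 0.527 RPKM in iWAT, 9.82 ± 1.02 in eWAT and 2.54 ± 0.326 in BAT (SD, n = 6 each). It was thus lower in iWAT than in eWAT adipocytes by a small margin (log2 difference -0.33, SE 0.08, adjusted p = 0.00319, edgeR). Both depots lay above BAT, iWAT adipocytes by 1.0 (SE 0.10, adjusted p = 3.28e-07) and eWAT adipocytes by 1.36 (SE 0.11, adjusted p = 1.11e-08). The sizes against BAT rest on the scaling: without TMM factors, the median of all genes tested moved by 0.85 and 0.91, and the Maoa differences became 1.86 and 2.28. Between the white depots, the eWAT mean was 1.23 times the iWAT mean in lane 1 and 1.30 times in lane 2.

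Htr2a and Maoa were the only genes of the 10, other than Htr2b, that reached a mean of 10 reads over the samples compared. Both were higher in eWAT than in iWAT adipocytes, a call made in that direction for 34.5% of all genes tested. Both were higher in iWAT adipocytes than in BAT (38.1% of all genes tested) and in eWAT adipocytes than in BAT (41.1%). For Htr2a, the mean of 10 reads was reached against BAT only through the white adipocyte samples, so its direction there is not independent of the filter. In either direction, 68.6%, 75.3% and 82.5% of all genes tested passed the threshold in the 3 comparisons, so a call by itself does not set these genes apart. The comparisons share samples, and their calls are not independent of each other.

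The other 7 genes had so few reads that they are given as reads. Htr7, a Gs-coupled receptor, had 13, 3, 4, 6, 9 and 2 reads in iWAT, 2, 0, 3, 3, 1 and 3 in eWAT and 4, 3, 2, 2, 2 and 3 in BAT. It was the only receptor of the list with its highest mean in iWAT adipocytes (0.0605 ± 0.0411 RPKM, against 0.0189 ± 0.0129 and 0.0251 ± 0.00617), and all 3 tissues overlapped. The 2 iWAT samples with the most Htr7 reads, those of mice 1 and 5, also had the highest endothelial sums of that depot (239 and 280, against at most 179 in the other 4) and the highest smooth muscle and pericyte sums (155 and 206). Their T and B cell sums (0.709 and 0.754) and the sums of the mast cell markers listed below (3.16 and 5.35) were also the highest of that depot. Rgs5 made up most of the smooth muscle and pericyte sum in iWAT adipocytes. The part of these cells in the Htr7 reads was not tested.

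Htr1d, a Gi-coupled receptor, had 1, 0, 4, 0, 2 and 1 reads in iWAT, 6, 6, 2, 4, 7 and 4 in eWAT and 0 in all 6 BAT samples. Every eWAT sample had a read, and the eWAT values lay above all BAT values and overlapped with iWAT. Htr1b, also Gi-coupled, had 3 reads in iWAT adipocytes of mouse 4, 0 reads in the other 11 white adipocyte samples and 1, 0, 0, 0, 2 and 1 reads in BAT. Its single exon on chromosome 9 (81524950 to 81526222, minus strand) shares 852 of 1273 bases (66.9%) with the opposite-strand gene D430036J16Rik, so even these reads are uncertain. Htr2c, a Gq-coupled receptor known from the brain, and Htr4, a Gs-coupled receptor known from the gut, had 0 reads in all 18 samples. A count of 0 in a single sample allows up to 3 reads in that sample, for counting error only. The 18 samples together set a tighter limit, which was not computed. Low expression was thus not detectable at this depth rather than absent.

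Slc6a4, the serotonin transporter that loads platelets, had 3, 1, 3, 4, 1 and 2 reads in iWAT, 29, 11, 11, 7, 2 and 11 in eWAT and 4, 0, 2, 1, 0 and 4 in BAT. The eWAT sample of mouse 1 was highest and that of mouse 5 was within the range of the other tissues. Mean RPKM was 0.0752 ± 0.0454 in eWAT adipocytes, 0.0169 ± 0.00846 in iWAT adipocytes and 0.0133 ± 0.0120 in BAT (SD, n = 6 each). The last 2 do not differ beyond their spread, and their order turned when RPKM was divided by the TMM factor. The summed RPKM of the platelet markers Pf4, Ppbp, Itga2b and Gp9, of which macrophages can also express Pf4, was 11.4 to 30.9 in iWAT, 48.7 to 74.4 in eWAT and 2.84 to 6.22 in BAT. Pf4 made up most of it, with mean RPKM of 21.4, 58.3 and 3.69. The other 3 markers were low in every tissue, with means of 0.505, 0.608 and 0.605 RPKM for Ppbp, and Itga2b and Gp9 were lowest in eWAT adipocytes (0.0719 and 0.0286). Within eWAT adipocytes, mouse 1, with the most Slc6a4 reads, had the lowest platelet sum (48.7). Mouse 5, with the fewest reads, had a sum of 65.0, second to mouse 3 (74.4). The part of platelets was not tested.

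Tph1, the tryptophan hydroxylase of peripheral tissues, had 0 reads in all iWAT samples, 1, 0, 5, 1, 1 and 2 reads in eWAT adipocytes and 1 read in 1 BAT sample. Mast cells are a known source of Tph1 in rodents. Of 7 mast cell markers (Cpa3, Cma1, Mcpt4, Tpsb2, Kit, Ms4a2 and Fcer1a), the summed RPKM was 1.65 to 5.35 in iWAT, 0.634 to 5.25 in eWAT and 2.24 to 4.91 in BAT, and Fcer1a had at most 3 reads in every sample. In eWAT adipocytes this sum was highest in mouse 3, the mouse with 5 Tph1 reads. Kit had a higher mean RPKM in iWAT than in eWAT adipocytes (1.66 and 0.470), while the mast cell proteases Cma1 (0.228 and 0.514), Mcpt4 (0.429 and 0.811) and Tpsb2 (0.194 and 0.643) had the lower mean in iWAT adipocytes. The part of mast cells was not tested.

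When genes with a mean of less than 10 reads were also tested, 6 of the 7 genes with a read, Htr2b aside, passed the threshold between iWAT and eWAT adipocytes, against 36.9% of all genes tested that way. Slc6a4 was lower in iWAT than in eWAT adipocytes (log2 difference -2.09, SE 0.49, adjusted p = 0.00229, edgeR), Htr7 was higher (1.68, SE 0.55, adjusted p = 0.0228), and Htr1d was lower (-1.63, SE 0.59, adjusted p = 0.0364). Tph1, at 0 reads in iWAT adipocytes, had an adjusted p of 0.0222. Against BAT, Htr1d passed in both depots (adjusted p = 0.0301 and 0.000123), and Slc6a4 passed in eWAT adipocytes (log2 difference 2.05, SE 0.60, adjusted p = 0.00584). Htr1b passed between eWAT adipocytes and BAT (adjusted p = 0.0304) with 0 against 4 reads in all, which shows how few reads stand behind these calls. In total 3 of 7 passed between iWAT adipocytes and BAT and 5 of 7 between eWAT adipocytes and BAT, with 49.8% and 55.5% of all genes.

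**Figure D3:**
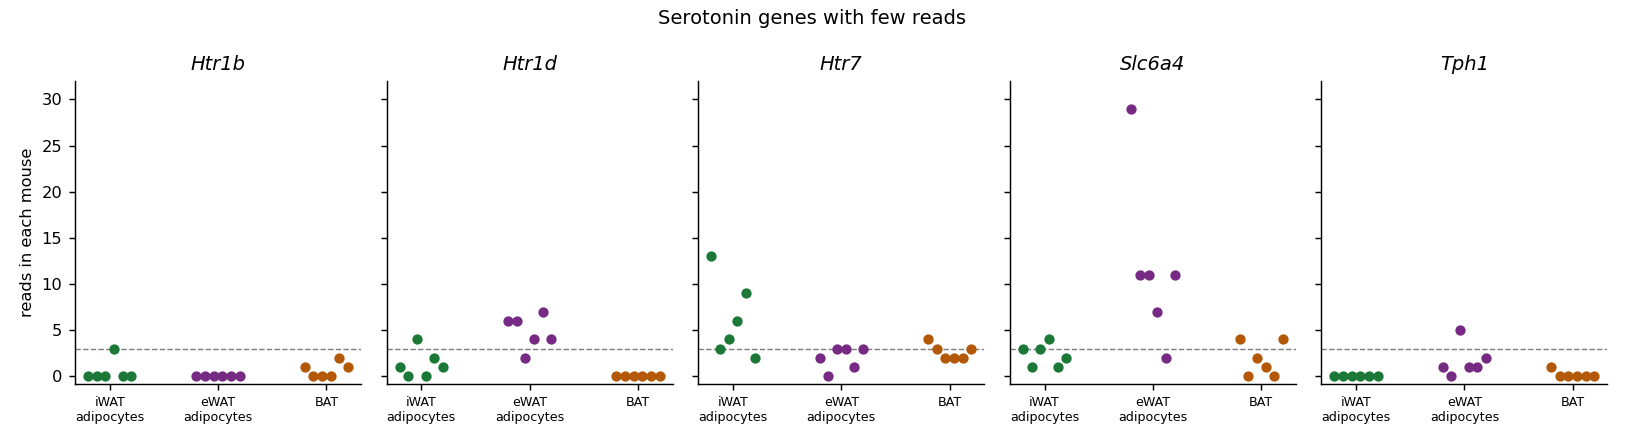
Reads per mouse for Htr1b, Htr1d, Htr7, Slc6a4 and Tph1, with 6 points per tissue and a dashed line at 3 reads. Most points lie at or near the line, and Slc6a4 in eWAT adipocytes (2 to 29 reads) and Htr7 in iWAT adipocytes (2 to 13 reads) reach highest above it.

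The rest of the pathway was followed in 23 further genes. The 7 other receptor genes (Htr1a, Htr1f, Htr3a, Htr3b, Htr5a, Htr5b and Htr6) had at most 1 read in any sample, and 13 of the other 16 genes could be tested. Of these 13, 6 were higher in iWAT and 2 in eWAT adipocytes (34.1% and 34.5% of all genes tested), with a median log2 difference of 0.13 (0.0014 over all genes tested). Between iWAT adipocytes and BAT, 5 were higher in iWAT and 6 in BAT (38.1% and 37.2% of all genes tested), with a median of -0.27, against 0.014. Between eWAT adipocytes and BAT, 4 were higher in eWAT and 7 in BAT (41.1% and 41.4%), with a median of -0.31, against -0.017. Slc18a1, counted as higher than BAT in both depots, met the read filter against BAT only through the white adipocyte samples. Without eWAT mice 1 and 3, Slc29a4 was no longer past the threshold between iWAT and eWAT adipocytes (0.72, adjusted p = 0.0852), which left 5 and 2.

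In contrast to Tph1, the neuronal tryptophan hydroxylase gene Tph2 (chromosome 10, 114515697 to 114622078, minus strand) had 598 to 3815 reads per sample in white adipocytes. It was at 34.8, 48.5, 26.3, 31.4, 34.5 and 41.4 RPKM in iWAT adipocytes of mice 1, 2, 3, 4, 5 and 16 and at 6.18, 27.5, 6.98, 18.7, 20.3 and 13.1 RPKM in eWAT adipocytes. In BAT it was at 0.186 to 0.900 RPKM (19 to 100 reads). The depots overlapped only because mouse 2 had a higher eWAT value than the iWAT value of mouse 3, and BAT lay below every white sample. Tph2 was higher in iWAT than in eWAT adipocytes (log2 difference 1.24, SE 0.33, adjusted p = 0.00447) and higher in both than in BAT (5.62, SE 0.31, adjusted p = 1.96e-10, and 4.41, SE 0.45, adjusted p = 2.22e-07). The lowest exon value of Tph2 was 0 in all 18 samples, as it was for Maoa. The reads thus did not cover all 13 exons of the Tph2 row in any sample, and which part of the transcript was present was not tested.

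The lowest eWAT values of Tph2 were those of mice 1 and 3, the libraries with the lowest adipocyte sums, and without them the difference between the white depots was 0.86 (adjusted p = 0.00377). Ddc, the decarboxylase of the next step, had at most 2 reads in every sample. A same-strand row, AK044578, lies within the Tph2 row and was at 0.264 RPKM in iWAT adipocytes and 0.0936 in eWAT adipocytes.

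Tryptophan hydroxylases need tetrahydrobiopterin, which Gch1, Pts and Spr make and Qdpr regenerates. Gch1, the first and rate-limiting enzyme, had the order of Htr2b, with 1.63 ± 0.670 RPKM in iWAT, 3.29 ± 0.465 in eWAT and 0.539 ± 0.156 in BAT (log2 difference -1.02 for iWAT over eWAT adipocytes, SE 0.20, adjusted p = 0.000465). It was higher in both depots than in BAT (0.97, SE 0.22, adjusted p = 0.00106, and 2.02, SE 0.16, adjusted p = 8.95e-09). Pts had another order, with 3.04 ± 0.334, 2.33 ± 0.182 and 8.55 ± 0.286 RPKM, and BAT lay above every white sample (-2.10 and -2.47 for iWAT and eWAT adipocytes over BAT, adjusted p = 4.58e-11 and 1.16e-12). Pts was higher in iWAT than in eWAT adipocytes (0.39, SE 0.09, adjusted p = 0.00186). Spr and Qdpr did not pass between the white depots (0.11 and -0.10), although Qdpr passed as lower in iWAT adipocytes without TMM factors (-0.18, adjusted p = 0.0131). Both were lower in white adipocytes than in BAT by 0.31 to 0.89 on the log2 scale, a direction that turned for both without TMM factors.

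Of the vesicle transporters, which store serotonin, Slc18a1 had the order of Htr2b at a low level. It was at 0.163 ± 0.0304 RPKM in iWAT, 0.803 ± 0.236 in eWAT and 0.0161 ± 0.0125 in BAT, with no overlap between any tissues (log2 difference -2.29 for iWAT over eWAT adipocytes, SE 0.21, adjusted p = 1.05e-06). Against BAT, it was higher by 2.67 in iWAT (SE 0.36, adjusted p = 5.56e-06) and by 4.98 in eWAT adipocytes (SE 0.36, adjusted p = 3.51e-09). Slc18a1 had 159 reads in iWAT, 862 in eWAT and 17 in BAT in all. It met the read filter against BAT only through the white adipocyte samples, so the direction of these 2 calls is not independent of the filter. Its row overlaps that of Atp6v1b2 on the opposite strand, but the genes share 0 exon bases in GENCODE vM1. Atp6v1b2 had the same order at a far higher level (mean RPKM of 26.7 in iWAT, 66.7 in eWAT and 7.23 in BAT), and whether its reads entered the Slc18a1 count was not tested. The macrophage sums given above also had this order, as for Gch1, and the part of macrophages in either gene was not tested. Slc18a2, the neuronal form, was at 0.828 ± 0.0896, 0.911 ± 0.104 and 0.652 ± 0.0376 RPKM. It passed only as lower in iWAT adipocytes than in BAT (-0.27, SE 0.09, adjusted p = 0.0146). This call was lost with the mouse number as a block (adjusted p = 0.142) and without the read filter (adjusted p = 0.21). The difference turned in direction without TMM factors (0.59). The Slc18a2 row overlaps that of Pdzd8 on the opposite strand (mean RPKM of 5.36 in iWAT, 5.56 in eWAT and 2.33 in BAT). Whether Pdzd8 reads entered the Slc18a2 count was not tested.

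Low-affinity carriers that can move serotonin into cells had their highest RPKM in iWAT adipocytes or BAT rather than in eWAT adipocytes. Slc22a3 was at 27.6 ± 5.62 RPKM in iWAT, 11.2 ± 5.62 in eWAT and 13.1 ± 1.69 in BAT. It was higher in iWAT than in eWAT adipocytes (log2 difference 1.31, SE 0.31, adjusted p = 0.00202) and than in BAT (0.47, SE 0.13, adjusted p = 0.00371, a call lost in 1 fit of all 18 samples), and lower in eWAT adipocytes than in BAT (-0.82, SE 0.27, adjusted p = 0.0115). Its lowest eWAT values were again in mice 1 and 3 (4.68 and 5.21 RPKM), and without them the difference from BAT was -0.45 (adjusted p = 0.00720). That difference was 0.084 without TMM factors, the opposite direction. Slc22a2 was at 0.728 ± 0.171, 0.215 ± 0.0671 and 1.13 ± 0.248 RPKM and was higher in iWAT than in eWAT adipocytes (1.78, SE 0.25, adjusted p = 3.65e-05). Both depots were lower than BAT in Slc22a2 (-1.24, SE 0.20, adjusted p = 3.40e-05, and -3.00, SE 0.24, adjusted p = 1.39e-08), although without TMM factors the first difference shrank to -0.38 and was no longer called. Slc29a4 was at 0.201 ± 0.0705, 0.0977 ± 0.0548 and 0.185 ± 0.0760 RPKM, with 4 to 19 reads per eWAT sample, and was higher in iWAT than in eWAT adipocytes (1.06, SE 0.36, adjusted p = 0.0179) and lower in eWAT adipocytes than in BAT (-1.51, SE 0.36, adjusted p = 0.00136). The second of these calls was lost without TMM factors.

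Maob, the second monoamine oxidase gene and the neighbour of Maoa on the X chromosome (16286407 to 16394492, minus strand), ran opposite to Maoa across the tissues. It was at 11.3, 12.4, 12.0, 11.1, 9.39 and 14.0 RPKM in iWAT adipocytes of mice 1, 2, 3, 4, 5 and 16, at 1.86, 5.65, 1.58, 6.35, 4.88 and 4.69 RPKM in eWAT adipocytes and at 14.5 to 20.0 RPKM in BAT. The 3 tissues did not overlap. Maob was higher in iWAT than in eWAT adipocytes (log2 difference 1.5, SE 0.30, adjusted p = 0.000630) and lower than in BAT in both depots (-1.18, SE 0.11, adjusted p = 1.62e-07, and -2.66, SE 0.29, adjusted p = 4.21e-07). Without TMM factors the differences from BAT were smaller, at -0.32 and -1.74 (adjusted p = 0.0125 and 8.79e-06). Without eWAT mice 1 and 3, the difference between the white depots was 1.11 (adjusted p = 2.32e-05).

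Within a sample, the share of Maoa in the summed RPKM of both oxidase genes does not depend on the scaling between samples. This share was 37.0 to 42.3% in iWAT (40.0 ± 1.76%), 61.0 to 84.6% in eWAT (71.6 ± 10.0%) and 11.1 to 14.2% in BAT (12.8 ± 1.19%, SD, n = 6 each). The tissues did not overlap, and the eWAT samples of mice 1 and 3 had the highest shares of all (84.6 and 83.9%, against at most 67.3% in the other 4). Aldh2, an aldehyde dehydrogenase of the next step, passed in no comparison with TMM factors (0.13, 0.12 and 0.016), but without them it was called higher than in BAT in both iWAT adipocytes (0.97, edgeR adjusted p = 5.59e-07) and eWAT adipocytes (0.92, adjusted p = 9.36e-06). Tgm2, a transglutaminase that can couple serotonin to proteins, was at 50.2 and 52.5 RPKM in iWAT and eWAT adipocytes and 25.6 in BAT. It was higher in both depots than in BAT (0.37, SE 0.09, adjusted p = 0.00138, and 0.45, SE 0.10, adjusted p = 0.000562). The opposite-strand row LOC100503503 lies within the Aldh2 row, at mean RPKM of 111 in iWAT, 107 in eWAT and 84.6 in BAT. Of the 4608 Tgm2 exon bases, 633 (13.7%) are shared with RP23-396G1.3 and 370 (8.03%) with Rprd1b, both on the opposite strand. Whether reads of these genes entered the Aldh2 and Tgm2 counts was not tested.

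**Figure D4:**
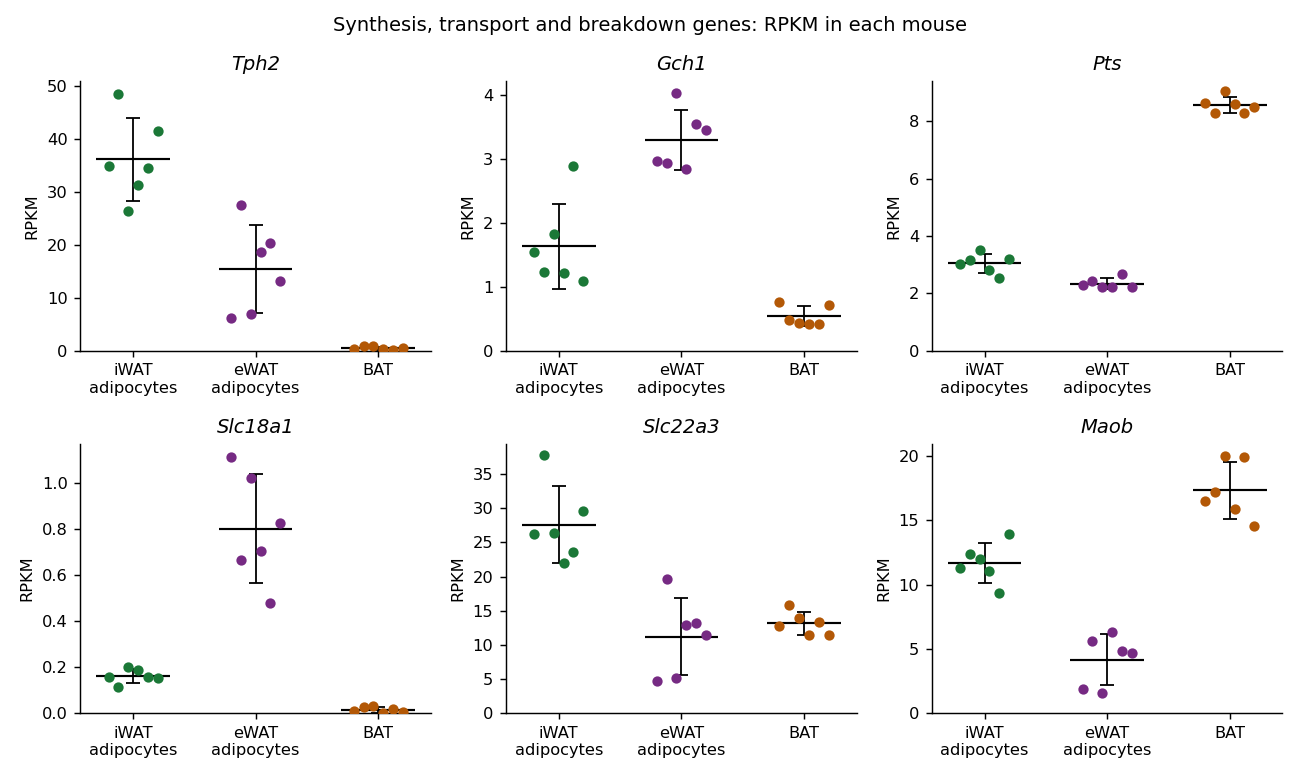
RPKM of Tph2, Gch1, Pts, Slc18a1, Slc22a3 and Maob in each mouse on linear axes, with 6 points per tissue, the mean as a line and the SD as a bar. Gch1 and Slc18a1 are highest in eWAT adipocytes, Tph2 and Slc22a3 in iWAT adipocytes, and Pts and Maob in BAT.

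**Figure D5:**
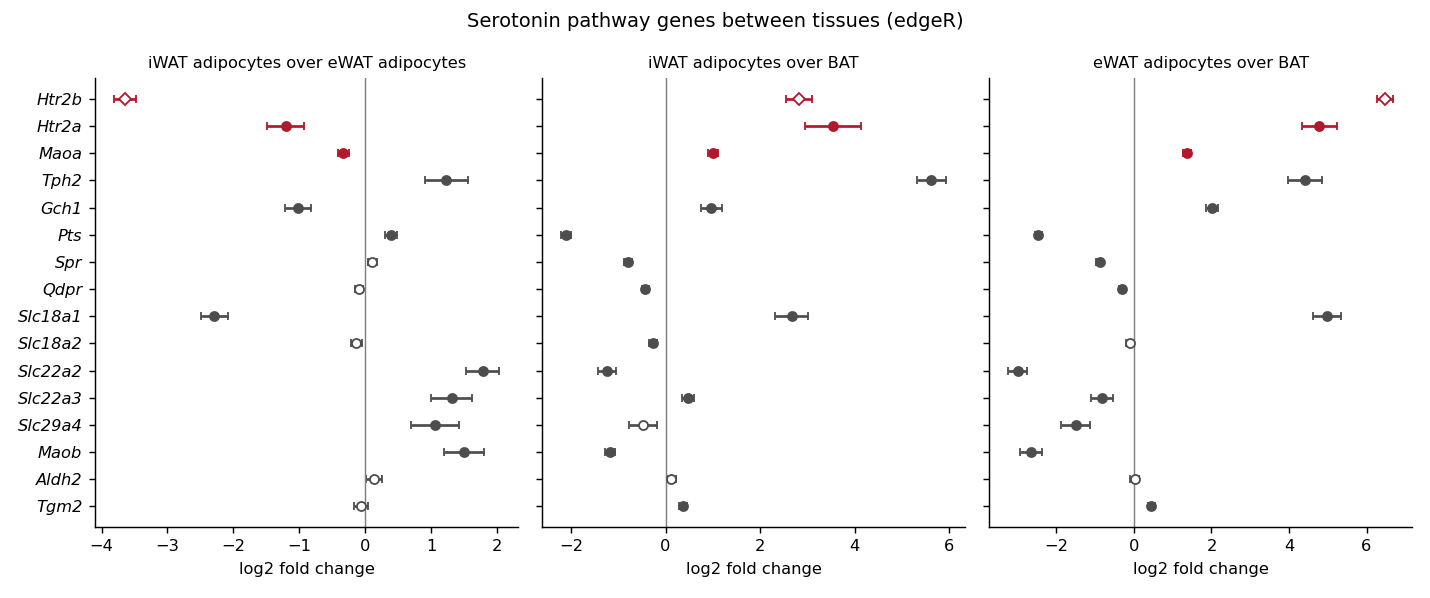
Log2 fold change with its SE for Htr2b, Htr2a, Maoa (red) and the 13 other pathway genes tested (grey) in the 3 comparisons, from edgeR with 6 mice per tissue. Filled circles have an adjusted p of at most 0.05, open circles do not, and for Htr2b (open diamond) no test result is given. Htr2b, Htr2a, Maoa, Gch1 and Slc18a1 lie left of 0 in the first panel and right of 0 in the other 2.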

How the data were processed

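RNA of isolated iWAT and eWAT adipocytes and of whole BAT was sequenced by the authors on a HiSeq instrument from NEBNext Ultra libraries and mapped to mm9. The submitters' processing notes name cutadapt 1.16 and HISAT2 2.1.0, and the counting program is not given in the sources used here. For each of 53445 transcript rows, the authors deposited a read count and the RPKM computed from it, with no other normalization. They also deposited exon coverage scores, used only to ask whether the lowest exon score is above 0. Samples were grouped by the tissue in their labels.

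Counts were compared with edgeR 4.0.16 in R 4.3.3 (glmQLFit and glmQLFTest, TMM, two-sided), each comparison on its own 12 samples, for genes whose count averaged 10 or more (19623, 19745 and 20076 genes). Benjamini-Hochberg adjustment covered every gene tested, with 0.05 as the threshold. SEs came from the quasi-likelihood F statistic. TMM factors averaged 1.35 and 1.37 in the white depots against BAT factors of 0.745 and 0.731. Only the mouse number says that samples are separate animals, so p-values measure the spread between these samples.

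Samples with the same number in their titles were taken as the same mouse, though no source states it outright. Deviations from the group means correlated across genes between same-numbered samples with a mean r of -0.0114 (iWAT and eWAT adipocytes, 6 pairs), -0.0108 (iWAT adipocytes and BAT, 4 pairs) and 0.0154 (eWAT adipocytes and BAT, 4 pairs), against 0.0030, 0.0015 and -0.0021 between other mice.

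Members and lists were chosen with earlier results of these data known. The genes named are the 10 members, the tested pathway genes, the 5 genes most like Htr2b, genes that overlap a member or a pathway gene, and the cell type markers. Asmt, also listed for the pathway, was not analysed here, and some marker lists are not reported here. The alternatives were no TMM scaling, no filter beyond 1 read, the replicate block, all 18 samples in 1 fit, the sum over rows of a symbol, lane as a covariate (white depots), DESeq2 1.42.0, the median, TMM-scaled RPKM, a pseudocount of 1 and, chosen after the data were seen, leaving out eWAT mice 1 and 3. The fit was tested on simulated data, where it recovered 80.6 to 86.7% of log2 changes of 1, and 2.22 to 5.73% of its calls were false. Few genes were changed in that simulation, so it could not test the TMM scaling between white adipocytes and BAT. Intervals from counts of 0 cover counting error only, not PCR duplicates.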

Additional observations from a re-analysis of the deposited data

Results flagged for a closer look

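In all, 4 values stood far from the others of their tissue, by Dixon's test at its 95% critical value for 6 samples, among 21 groups of member values with any spread (chance flags about 1 in 20 groups of normally distributed values, which counts of 0 to 5 reads are not). Htr2a was at 0.0436 RPKM (5 reads) in BAT of mouse 2, against 0 to 0.0138 RPKM in the other 5 mice. Tph1 was at 0.0457 RPKM (5 reads) in eWAT adipocytes of mouse 3, against 0 to 0.0162 RPKM in the others. Htr1b was at 0.0758 RPKM (3 reads) in iWAT adipocytes of mouse 4 and Tph1 at 0.00823 RPKM (1 read) in BAT of mouse 1, each with 0 in the other 5 mice, where the gap equals the whole range by construction and the test says nothing. All of these values rest on at most 5 reads, and no value of Htr2b or Maoa stood out in this way.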

How the results depend on the processing

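Under the alternatives, 316 log2 differences kept their direction and their side of the threshold, 11 turned in direction, 6 lost and 3 gained a call. These counts include the fits of Htr2b, which are no support for it, because it was chosen by its values in the same samples. Without TMM factors the median of all genes against BAT moved by 0.85 (iWAT adipocytes) and 0.91 (eWAT adipocytes), and calls of all genes moved from 7528 higher in iWAT adipocytes and 7336 in BAT to 13703 and 3054, and from 8243 higher in eWAT adipocytes and 8318 in BAT to 12965 and 4061. Against BAT, directions then turned in iWAT adipocytes for Spr (0.046), Qdpr (0.42), Slc18a2 (0.59) and Slc29a4 (0.37), and in eWAT adipocytes for Spr (0.017), Qdpr (0.60), Slc18a2 (0.81) and Slc22a3 (0.084), and the 3 calls gained were Aldh2 over BAT in iWAT (0.97) and eWAT adipocytes (0.92) and Qdpr between the white depots (-0.18). Aldh2 in eWAT adipocytes over BAT, not called with TMM factors, turned with the replicate block (-0.087), in 1 fit of all 18 samples (-0.013) and without eWAT mice 1 and 3 (-0.069). Without the read filter, 6 members other than Htr2b passed between iWAT and eWAT adipocytes and 5 between eWAT adipocytes and BAT, in place of 2 each, because 7 rather than 2 were tested. With a pseudocount of 1, 0 of the 5 genes most like Htr2b remained. With the replicate block (pairing by mouse), 2 members passed in each comparison, and Slc18a2 in iWAT adipocytes over BAT was the 1 call lost (-0.28). Slc22a3 in iWAT adipocytes over BAT lost its call in 1 fit of all 18 samples (0.47). Depth limits 7 of the 10 genes: 29 reads were the most that any of them had in a sample.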
